A study of Homo sapiens with 12 samples.

Results

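The BCL2 family regulators described here are 10 genes, BCL2, BCL2L1, MCL1, BAX, BAK1, BCL2L11, BBC3, PMAIP1, BID and BMF, chosen by name and found by Ensembl ID among the 58302 genes of the deposited count table. BCL2 family proteins decide whether the outer mitochondrial membrane is opened, which commits a cell to intrinsic apoptosis. BCL2, BCL2L1 (whose main product is BCL-xL) and MCL1 hold the effectors BAX and BAK1 in check, and BH3-only proteins, here BCL2L11 (BIM), BBC3 (PUMA), PMAIP1 (NOXA), BID and BMF, either neutralise the guardians or engage the effectors directly. BBC3, PMAIP1 and BAX are known to be induced by DNA damage, PMAIP1 is also induced by the stress factor ATF4, and BCL-xL and MCL1 are guardians often linked to the survival of prostate cancer cells.

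Polyadenylated RNA was sequenced from PC3, a line from a bone metastasis, and from 22Rv1, a line with androgen receptor and luminal prostate transcripts derived from a xenograft. Each line carried a lentivirus built on the MSCV-IRES-GFP vector and coding for mutated ETV4 and eGFP (ETV4AAA), wild-type ETV4 and eGFP (ETV4WT) or eGFP alone (eGFP), so all 6 groups share the viral vector and eGFP. ETV4 is an ETS transcription factor of the PEA3 subfamily that gene fusions activate in some prostate tumours, and which residues ETV4AAA changes was not given in the sources used here. Cells were sorted after 1 week as eGFP positive and DAPI negative, so dead cells were not sampled, and each group holds n = 2 libraries. Nothing in the labels says that replicates were grown separately, and p-values therefore cover the spread between these libraries alone, which may be technical. These are bulk samples, in which fewer cells of a type and less RNA per cell cannot be told apart.

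Library totals ran from 43572713 to 51199207 counts for PC3 and from 41698738 to 50226044 counts for 22Rv1, and levels are given as CPM, the count scaled by the TMM-adjusted library total. ETV4 itself had 390 and 281 CPM in 22Rv1 ETV4AAA and 385 and 484 CPM in 22Rv1 ETV4WT, against 31.2 and 24.9 CPM in 22Rv1 eGFP. In PC3 it had 223 and 109 CPM in the libraries labelled ETV4AAA and 215 and 112 CPM in those labelled ETV4WT, against 116 and 126 CPM in eGFP. The PC3 libraries numbered 2 of both constructs thus lie below their eGFP libraries in ETV4, against their labels, and the counts do not separate introduced from endogenous ETV4. PC3 results are therefore given by library label, and where a member's call changes without both of these libraries this is said beside it. Leaving them out leaves 1 library per construct whose spread is assumed to be that of the other groups. Markers of the lines followed the labels in sum. The summed 22Rv1 markers had 1718 to 2585 CPM in 22Rv1 libraries and 408 to 838 CPM in PC3 libraries. The summed PC3 markers had 1689 to 2163 CPM in PC3 libraries and 163 to 530 CPM in 22Rv1 libraries. Between the eGFP cells 7 of 8 22Rv1 markers were lower and 8 of 8 PC3 markers higher in PC3. KLK3, a defining 22Rv1 marker, had 0 counts in every PC3 library. AXL, a defining PC3 marker, had at most 0.0237 CPM in 22Rv1 libraries, against at least 8.15 CPM in PC3.

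All 10 members passed the low-count filter, which kept 23238 genes. The anti-apoptotic genes lie in GRCh38 on chromosome 18 at 63123346 to 63320128 (BCL2, ENSG00000171791, minus strand), chromosome 20 at 31664452 to 31723989 (BCL2L1, ENSG00000171552, minus strand) and chromosome 1 at 150574551 to 150579738 (MCL1, ENSG00000143384, minus strand). The effectors lie on chromosome 19 at 48954815 to 48961798 (BAX, ENSG00000087088, plus strand) and chromosome 6 at 33572547 to 33580293 (BAK1, ENSG00000030110, minus strand). The BH3-only genes lie on chromosome 2 at 111119378 to 111168447 (BCL2L11, ENSG00000153094, plus strand), chromosome 19 at 47220822 to 47232766 (BBC3, ENSG00000105327, minus strand), chromosome 18 at 59899948 to 59904306 (PMAIP1, ENSG00000141682, plus strand), chromosome 22 at 17734138 to 17774770 (BID, ENSG00000015475, minus strand) and chromosome 15 at 40087890 to 40108892 (BMF, ENSG00000104081, minus strand). Genes on the opposite strand overlap BCL2, BCL2L1, BCL2L11, BBC3, BAK1 and BMF, and since the strand setting of the counting is not known, reads of such pairs may be assigned to either gene. The largest such partner, MIR4435-2HG at BCL2L11, had 0 to 917 counts per library, against 882 to 1465 for BCL2L11 itself. ABALON at BCL2L1 had 7 to 91.

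Promoter sequences are shown for PMAIP1, BCL2L1 and BMF, which differed between the lines, passed with a construct in PC3 and hold a match to a motif searched. They come from RefSeq (build GRCh38.p14), run from 250 bases before a transcription start to 30 after it, and are written 5′ to 3′ on the gene's strand. Capitals mark matches, on either strand, to CCGGAA, an extended form of the GGAA core that ETS factors bind, or to TGACG, the core of the element bound by ATF and CREB proteins. The PMAIP1 window is chr18:59899746-59900025 on the plus strand, the BCL2L1 window, the second of its windows, is chr20:31723934-31724213 on the minus strand, and the BMF window, also the second, is chr15:40108850-40109129 on the minus strand.
PMAIP1: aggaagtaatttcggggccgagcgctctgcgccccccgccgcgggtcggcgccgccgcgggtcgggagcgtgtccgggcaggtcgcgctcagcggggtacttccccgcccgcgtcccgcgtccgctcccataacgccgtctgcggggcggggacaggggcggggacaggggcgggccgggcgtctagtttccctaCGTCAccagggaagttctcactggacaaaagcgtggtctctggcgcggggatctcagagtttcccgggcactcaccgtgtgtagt
BCL2L1: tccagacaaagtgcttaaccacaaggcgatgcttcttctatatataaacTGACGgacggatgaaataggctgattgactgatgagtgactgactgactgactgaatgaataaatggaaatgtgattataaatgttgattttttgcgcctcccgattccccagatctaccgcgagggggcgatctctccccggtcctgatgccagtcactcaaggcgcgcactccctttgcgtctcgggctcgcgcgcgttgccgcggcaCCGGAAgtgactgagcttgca
BMF: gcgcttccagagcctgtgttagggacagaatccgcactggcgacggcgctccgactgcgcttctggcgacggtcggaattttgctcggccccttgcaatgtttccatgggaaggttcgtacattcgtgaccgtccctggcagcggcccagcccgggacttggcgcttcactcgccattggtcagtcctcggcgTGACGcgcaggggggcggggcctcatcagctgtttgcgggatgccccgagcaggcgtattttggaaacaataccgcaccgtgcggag
PMAIP1 holds TGACG, read on the opposite strand, at positions -55 to -51 from the start. BCL2L1 holds TGACG at -201 to -197 and the extended ETS form CCGGAA at 10 to 15 after the start, and BMF holds TGACG at -57 to -53. Over the longer searched windows, which run to 50 bases after the start, the members have 15 windows for 9 genes, MCL1 not among them. The shorter GGAA core was not searched. CCGGAA was found in 1 of these windows, that of BCL2L1, and in 17.2% of all 34943 promoter windows. TGACG was found in 5 windows, of BAX, BCL2, BCL2L1, BMF and PMAIP1, and in 24.5% of all windows. TGATGNAA, the core of the element bound by ATF4 with C/EBP proteins, was in 0 of the 15 windows and in 3.62% of all.

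In the eGFP cells the lines differed most in BH3-only genes. PC3 held far more PMAIP1 and more BID, and 22Rv1 held far more BBC3 and BMF. PMAIP1, which binds MCL1 above all, had 84.7 and 78.8 CPM in PC3 eGFP against 8.45 and 9.86 CPM in 22Rv1 eGFP, 8.93-fold higher in PC3. BID, which caspase-8 cleaves to link death receptors to mitochondria, had 27.1 and 27.5 CPM in PC3 eGFP against 7.73 and 7.47 CPM in 22Rv1 eGFP. Both were higher in PC3 with no overlap of libraries, by 3.16 ± 0.17 for PMAIP1 (adjusted p = 9.84e-09, edgeR quasi-likelihood test) and 1.84 ± 0.17 for BID (adjusted p = 9.4e-07) as log2 difference ± SE. BBC3, the damage-inducible activator PUMA, had 0.986 and 1.14 CPM in PC3 eGFP against 25.1 and 13.6 CPM in 22Rv1 eGFP. BMF, a BH3-only protein linked to loss of anchorage, had 2.11 and 2.79 CPM in PC3 eGFP against 41.2 and 34.3 CPM in 22Rv1 eGFP. Both transcripts were close to the bottom of the family in PC3, with log2 differences of -4.18 ± 0.50 for BBC3 (adjusted p = 1.04e-05) and -3.94 ± 0.21 for BMF (adjusted p = 8.39e-09).

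**Figure D1:**
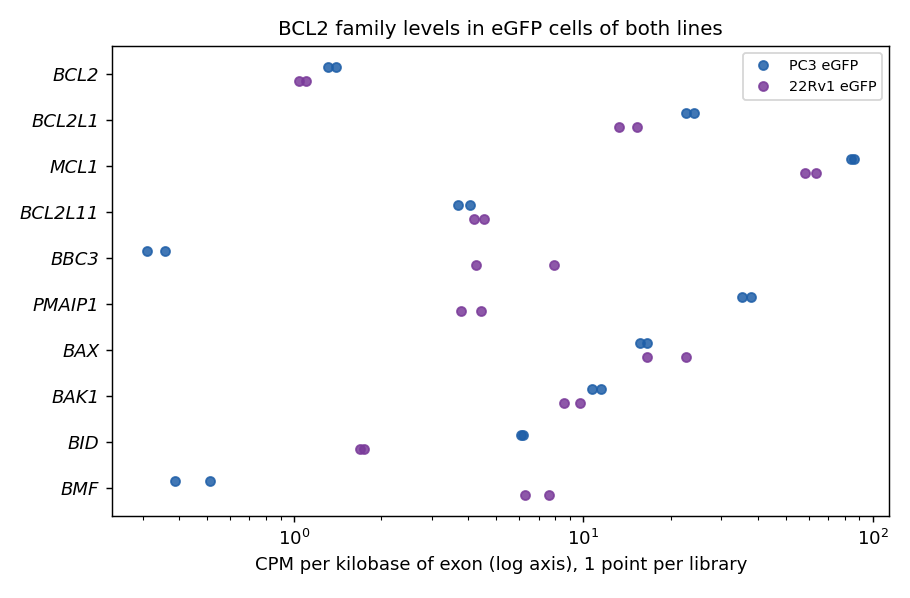
Levels of the 10 genes in the eGFP libraries of PC3 and 22Rv1, in CPM per kilobase of exon on a log axis, with 1 point per library. PMAIP1 and BID lie to the right in PC3, BBC3 and BMF far to the right in 22Rv1, and BAX overlaps.

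Among the guardians, BCL2L1 had 75.1 and 79.9 CPM in PC3 eGFP against 50.9 and 44.1 CPM in 22Rv1 eGFP, a log2 difference of 0.71 ± 0.18 (adjusted p = 0.00323). MCL1 had 377 and 368 CPM in PC3 eGFP against 254 and 279 CPM in 22Rv1 eGFP, a log2 difference of 0.48 ± 0.13 (adjusted p = 0.00511). Both were higher in PC3 with TMM scaling, and neither passed with upper-quartile scaling, at adjusted p = 0.054 for BCL2L1 (range over the alternatives 0.00025 to 0.054) and 0.413 for MCL1 (range 0.0074 to 0.413). BCL2 had 15.4 and 16.4 CPM in PC3 eGFP against 12.2 and 12.9 CPM in 22Rv1 eGFP, and BCL2L11 had 24.5 and 26.9 CPM in PC3 eGFP against 27.9 and 30.2 CPM in 22Rv1 eGFP. BAX had 40.5 and 42.9 CPM in PC3 eGFP against 58.4 and 42.9 CPM in 22Rv1 eGFP, and BAK1 had 23.7 and 25.5 CPM in PC3 eGFP against 21.5 and 18.9 CPM in 22Rv1 eGFP. These 4 genes did not pass the test, at adjusted p = 0.0618, 0.255, 0.437 and 0.252, and BCL2L11 passed with upper-quartile scaling (adjusted p = 0.0072, over a range of 0.0072 to 0.656). In all, 6 of 10 members differed between the lines, 4 higher and 2 lower in PC3, where 70.9% of all genes tested differed (36% higher and 34.9% lower), so this share is close to the background. The libraries of the lines did not overlap for 9 of 10 members and for 87.5% of all genes. With upper-quartile scaling, which shifts the median of all genes by -0.34, 2 were higher and 3 lower. Of 13 death receptor genes 10 differed between the eGFP cells, 9 higher and 1 lower in PC3. Of 13 other BCL2 family genes 8 differed, 2 higher and 6 lower. Both shares are near the 70.9% of all genes. From these lists, CASP8, the initiator caspase of death receptors, was 14.04-fold higher in PC3 (log2 difference 3.81 ± 0.16, adjusted p = 1.11e-09). BIK, another BH3-only gene, was lower in PC3 by a log2 difference of -3.96 ± 0.25 (adjusted p = 3.28e-08).

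Per kilobase of exon, MCL1 was the most abundant of the 10 in every group and BCL2, BBC3 or BMF the least. MCL1 had 117 ± 13.5 CPM per kilobase in PC3 ETV4AAA, 142 ± 21.3 in PC3 ETV4WT and 85.2 ± 1.54 in PC3 eGFP (SD, n = 2 each). It had 74.0 ± 1.95 CPM per kilobase in 22Rv1 ETV4AAA, 55.2 ± 0.292 in 22Rv1 ETV4WT and 61.0 ± 3.95 in 22Rv1 eGFP. The order below it depended on the line. In PC3 eGFP the order was PMAIP1 at 36.6 ± 1.89, BCL2L1 at 23.4 ± 1.02, BAX at 16.1 ± 0.666, BAK1 at 11.1 ± 0.567, BID at 6.14 ± 0.0721, BCL2L11 at 3.86 ± 0.258, BCL2 at 1.35 ± 0.0550, BMF at 0.451 ± 0.0883 and BBC3 at 0.334 ± 0.0339 CPM per kilobase, and no neighbours in that order overlapped. In 22Rv1 eGFP it was BAX at 19.6 ± 4.24, BCL2L1 at 14.3 ± 1.45, BAK1 at 9.14 ± 0.811, BMF at 6.93 ± 0.903, BBC3 at 6.08 ± 2.57, BCL2L11 at 4.36 ± 0.236, PMAIP1 at 4.10 ± 0.446, BID at 1.71 ± 0.0414 and BCL2 at 1.07 ± 0.0398 CPM per kilobase. BMF and BBC3, BBC3 and BCL2L11, and BCL2L11 and PMAIP1 overlapped there. On this scale PMAIP1 stood next to MCL1 in PC3 and near the bottom in 22Rv1.

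The constructs moved the order little in PC3 and more in 22Rv1. In PC3 the top 7 places were held by the same genes in the same order in all 3 groups, with BAX and BAK1 overlapping in the libraries labelled ETV4AAA and ETV4WT. In 22Rv1 ETV4AAA BCL2L1 came next to MCL1, at 49.0 ± 3.17 CPM per kilobase, followed by BAX at 32.1 ± 2.99, whereas BAX, at 38.3 ± 1.04, stood above BCL2L1, at 16.1 ± 0.158, in 22Rv1 ETV4WT. BCL2 was last in all 3 groups of 22Rv1. The exon length used decides some places: divided by the median transcript length instead, BCL2L1 led in 22Rv1 ETV4AAA and BAX in 22Rv1 ETV4WT, and PMAIP1 stood behind BCL2L1 in PC3 ETV4AAA (114 against 177 CPM per kilobase) and PC3 eGFP (64.8 against 84.8).

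In PC3 both constructs went with higher BCL2L1 and PMAIP1, and the libraries labelled ETV4WT also with higher MCL1 and BBC3 and lower BCL2, BCL2L11 and BID. For ETV4AAA 3 of 10 members passed, 2 higher and 1 lower, where 3.69% of all genes tested passed (2.45% higher and 1.24% lower). That background rests on single libraries: 858 genes were called, 66.3% of them higher, against 2253 (30.5% higher) without ETV4AAA replicate 1, 385 without ETV4AAA replicate 2, 213 without eGFP replicate 1 and 218 without eGFP replicate 2. For ETV4WT 7 of 10 passed, 4 higher and 3 lower, where 23.4% of all genes passed (12.7% higher and 10.7% lower). Construct and eGFP libraries did not overlap for 8 of 10 members with ETV4AAA, where 53.9% of all genes did not, and for 10 of 10 with ETV4WT, where 64% did not. The median log2 change over the 10 members was 0.03 for ETV4AAA and -0.42 for ETV4WT, beside a median of 0 over all genes in both. With upper-quartile scaling, which shifts the median of all genes by 0.15 for ETV4WT, 4 were higher and 1 lower there. Both comparisons use the same eGFP libraries, so their values are set side by side and not counted as independent.

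**Figure D2:**
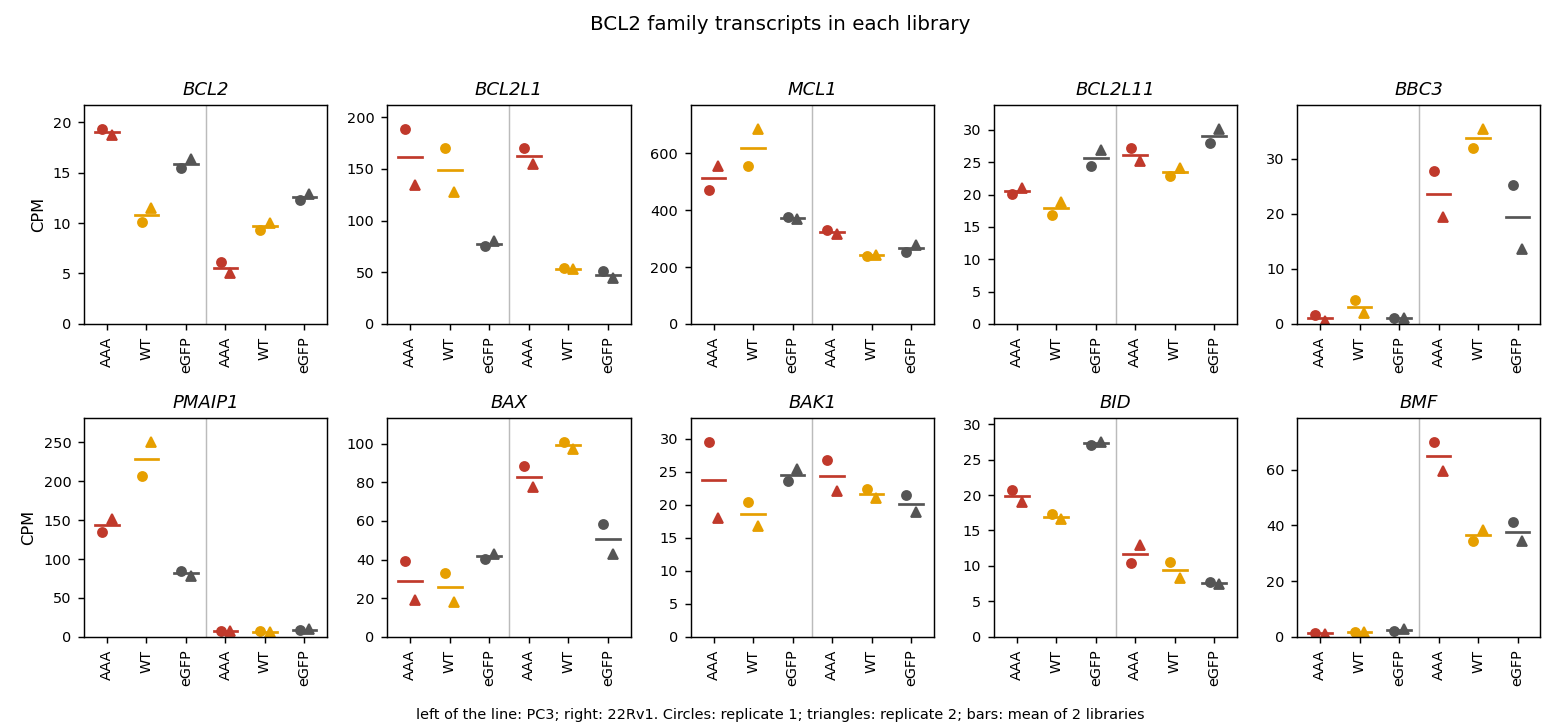
CPM of each of the 10 genes in every library, linear axes starting at 0, with PC3 left and 22Rv1 right of the line in each panel; AAA, WT and eGFP on the axis are ETV4AAA, ETV4WT and eGFP, circles and triangles are replicates 1 and 2, and bars are means of 2 libraries. BCL2L1 is high in both PC3 construct groups and in 22Rv1 ETV4AAA, and PMAIP1 is high in all PC3 groups and highest in ETV4WT.

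BCL2L1 had 189 and 134 CPM in the PC3 libraries labelled ETV4AAA and 170 and 128 CPM in those labelled ETV4WT, against 75.1 and 79.9 CPM in PC3 eGFP. All 4 construct libraries lay above both eGFP libraries. BCL2L1 rose by a log2 change of 1.06 ± 0.18 with ETV4AAA (adjusted p = 0.0055) and 0.95 ± 0.18 with ETV4WT (adjusted p = 0.00231). The ETV4WT call held under every alternative, and the ETV4AAA call was lost without eGFP replicate 1 (adjusted p = 0.0891) or 2 (adjusted p = 0.0661) and with PC3 fitted on its own (0.0507), over a range of 1.47e-09 to 0.0891. MCL1, a short-lived guardian that NOXA targets, had 471 and 554 CPM with ETV4AAA and 554 and 686 CPM with ETV4WT, against 377 and 368 CPM in eGFP. MCL1 rose with ETV4WT (log2 change 0.74 ± 0.13, adjusted p = 0.00165) and did not pass with ETV4AAA (0.46 ± 0.13, adjusted p = 0.0827), where it passed without ETV4AAA replicate 1 (adjusted p = 0.0367), with no filter on low counts (0.0117) and in DESeq2's Wald test (0.0242), over a range of 0.0117 to 0.524. BCL2 had 19.3 and 18.7 CPM with ETV4AAA and 10.1 and 11.5 CPM with ETV4WT, against 15.4 and 16.4 CPM in eGFP. The ETV4WT libraries lay below eGFP and the ETV4AAA libraries above it. BCL2 fell with ETV4WT (log2 change -0.55 ± 0.15, adjusted p = 0.020) and did not pass with ETV4AAA (0.26 ± 0.15, adjusted p = 0.406). The fall was lost without eGFP replicate 1 (adjusted p = 0.085), eGFP replicate 2 (0.147) or ETV4WT replicate 1 (0.082), and also with upper-quartile factors (0.0857), no filter (0.156) and PC3 fitted on its own (0.0535), over a range of 0.0239 to 0.156.

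The effectors did not pass in PC3, and their replicates disagreed. BAX had 39.2 and 19.1 CPM in the libraries labelled ETV4AAA and 33.2 and 18.1 CPM in those labelled ETV4WT, against 40.5 and 42.9 CPM in eGFP. BAK1 had 29.6 and 18.0 CPM with ETV4AAA and 20.4 and 16.8 CPM with ETV4WT, against 23.7 and 25.5 CPM in eGFP. In both genes replicate 1 of each construct was above replicate 2, by 2.06-fold for BAX and 1.64-fold for BAK1 in ETV4AAA. The same order held in PC3 for BCL2L1 (1.41-fold in ETV4AAA), BBC3 (3.06-fold), BID and BMF. The reverse order held for MCL1, BCL2L11 and PMAIP1. ETV4 itself differed 2.03-fold between the same ETV4AAA libraries and 1.92-fold between the ETV4WT libraries, and its part in the result was not tested. The log2 change of BAX was -0.52 ± 0.31 for ETV4AAA (adjusted p = 0.425) and -0.70 ± 0.31 for ETV4WT (adjusted p = 0.131). Without replicate 1 of the construct BAX passed in each, at -1.12 (adjusted p = 0.0366, range 0.0366 to 1) for ETV4AAA and -1.20 (adjusted p = 0.0236, range 0.00619 to 0.599) for ETV4WT, which also passed with no filter (0.00619). The log2 change of BAK1 was -0.05 ± 0.21 for ETV4AAA (adjusted p = 0.959) and -0.40 ± 0.21 for ETV4WT (adjusted p = 0.201).

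PMAIP1 moved most firmly among the BH3-only genes of PC3. PMAIP1 had 135 and 152 CPM in the libraries labelled ETV4AAA and 206 and 251 CPM in those labelled ETV4WT, against 84.7 and 78.8 CPM in eGFP. The 3 groups did not overlap. Replicate 1 over replicate 2 of PMAIP1 was 0.892 in ETV4AAA and 0.822 in ETV4WT, and that of ETV4 was 2.03 and 1.92. The part of ETV4 in the PMAIP1 values was not tested. PMAIP1 was 1.76-fold the eGFP level with ETV4AAA (log2 change 0.81 ± 0.16, adjusted p = 0.0145) and 2.79-fold with ETV4WT. The ETV4WT call held under every alternative, and the ETV4AAA call was lost without ETV4AAA replicate 2 (adjusted p = 0.0939), eGFP replicate 1 (0.116) or eGFP replicate 2 (0.193), over a range of 2.4e-05 to 0.193. BBC3 had 1.68 and 0.550 CPM with ETV4AAA and 4.33 and 1.93 CPM with ETV4WT, against 0.986 and 1.14 CPM in eGFP. Both ETV4WT libraries lay above eGFP, with a 2.24-fold gap between them. BBC3 rose with ETV4WT (log2 change 1.56 ± 0.49, adjusted p = 0.0378) and did not pass with ETV4AAA (0.10 ± 0.53, adjusted p = 0.974). The rise was lost without eGFP replicate 1 (adjusted p = 0.17), eGFP replicate 2 (0.141) or ETV4WT replicate 1 (0.251) and with PC3 fitted on its own (0.0807), over a range of 4.97e-10 to 0.251.

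The other BH3-only genes were lower in the construct libraries of PC3. BCL2L11, whose product BIM binds every guardian, had 20.1 and 21.1 CPM with ETV4AAA and 16.8 and 18.9 CPM with ETV4WT, against 24.5 and 26.9 CPM in eGFP. BCL2L11 fell with ETV4WT (log2 change -0.52 ± 0.14, adjusted p = 0.0156), and the ETV4AAA value of -0.32 ± 0.14 did not pass (adjusted p = 0.271). The fall was lost without eGFP replicate 1 (adjusted p = 0.059), eGFP replicate 2 (0.15) or ETV4WT replicate 1 (0.0642), and also with upper-quartile factors (0.0928), no filter (0.151) and PC3 fitted on its own (0.0676), over a range of 0.0177 to 0.151. BID had 20.7 and 19.1 CPM with ETV4AAA and 17.4 and 16.6 CPM with ETV4WT, against 27.1 and 27.5 CPM in eGFP. All 4 construct libraries lay below eGFP. BID fell with ETV4WT (log2 change -0.69 ± 0.16, adjusted p = 0.00966) and did not pass with ETV4AAA (-0.46 ± 0.16, adjusted p = 0.182). The fall of BID was lost without eGFP replicate 1 (adjusted p = 0.0611), eGFP replicate 2 (0.0756) or ETV4WT replicate 2 (0.0556) and without both PC3 construct libraries numbered 2 (0.0609), over a range of 0.00557 to 0.0756. BMF had 1.46 and 1.00 CPM with ETV4AAA and 1.82 and 1.81 CPM with ETV4WT, against 2.11 and 2.79 CPM in eGFP. Both groups lay under eGFP at a low level. BMF fell with ETV4AAA (log2 change -0.98 ± 0.22, adjusted p = 0.0309) and did not pass with ETV4WT (-0.43 ± 0.21, adjusted p = 0.164). The fall with ETV4AAA was lost without ETV4AAA replicate 2 (adjusted p = 0.241), eGFP replicate 1 (0.068) or eGFP replicate 2 (0.336), with PC3 fitted on its own (0.106) and without both PC3 construct libraries numbered 2 (log2 change -0.75, adjusted p = 0.195), over a range of 0.00277 to 0.336.

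**Figure D3:**
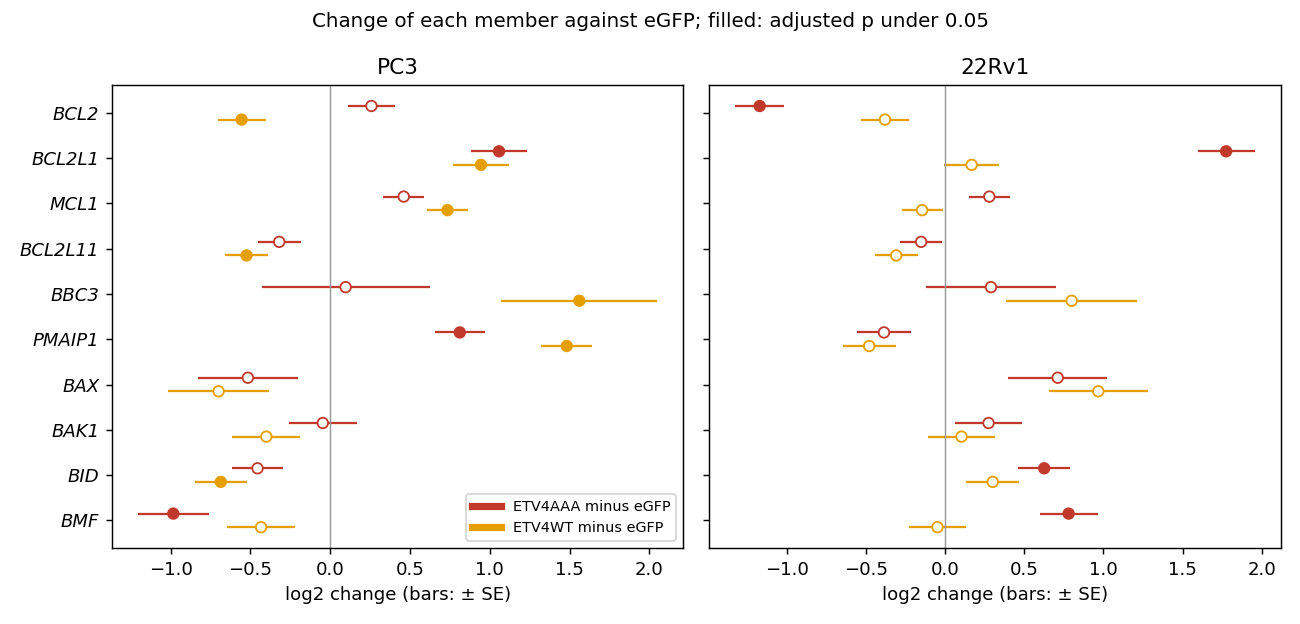
log2 change of each of the 10 genes against eGFP with its SE, in PC3 and in 22Rv1, for ETV4AAA and ETV4WT; filled points have an adjusted p under 0.05. BCL2L1 is filled for both constructs in PC3 and for ETV4AAA in 22Rv1, and no ETV4WT point is filled in 22Rv1.

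Member counts in PC3 rest on few libraries. Without both PC3 construct libraries numbered 2, 2 members passed for ETV4AAA and 6 for ETV4WT. Leaving out 1 library, the ETV4AAA count was 5 without its replicate 1, 1 without its replicate 2 and 0 without either eGFP library. The ETV4WT count was 3 without either eGFP library, 5 without ETV4WT replicate 1 and 6 without ETV4WT replicate 2.

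In 22Rv1 ETV4AAA went with higher BCL2L1 and lower BCL2 transcripts, and ETV4WT gave no member past the threshold. For ETV4AAA 4 of 10 members passed, 3 higher and 1 lower, where 31.8% of all genes tested passed (17.4% higher and 14.4% lower), so the share is near the background. For ETV4WT 0 of 10 passed in edgeR, where 1.5% of all genes passed. DESeq2 also gave 0, 4 members had an unadjusted p under 0.05, and with no filter on low counts 2 passed, BAX and BBC3. Libraries did not overlap for 9 of 10 members with ETV4AAA, where 65.4% of all genes did not, and for 8 of 10 with ETV4WT, where 45.5% did not. The median log2 change over the members was 0.28 for ETV4AAA and 0.03 for ETV4WT, beside -0.0012 and 0.01 over all genes.

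BCL2L1 had 170 and 155 CPM in 22Rv1 ETV4AAA and 53.8 and 53.01 CPM in ETV4WT, against 50.9 and 44.1 CPM in eGFP. The ETV4AAA libraries lay far above all other 22Rv1 libraries and within the range of the PC3 construct libraries. BCL2L1 rose 3.42-fold with ETV4AAA (log2 change 1.77 ± 0.18, adjusted p = 1.34e-05), in every alternative run, and with ETV4WT the log2 change was 0.17 ± 0.17 (adjusted p = 0.71). BCL2 had 6.15 and 5.03 CPM in ETV4AAA and 9.34 and 10.0 CPM in ETV4WT, against 12.2 and 12.9 CPM in eGFP. The 3 groups did not overlap. BCL2 fell with ETV4AAA to 0.445-fold of the eGFP level (log2 change -1.17 ± 0.16, adjusted p = 0.000122), in every alternative run, and the ETV4WT value of -0.38 ± 0.15 did not pass (adjusted p = 0.278). MCL1 had 329 and 317 CPM in ETV4AAA and 240 and 242 CPM in ETV4WT, against 254 and 279 CPM in eGFP. Its log2 change was 0.28 ± 0.13 with ETV4AAA (adjusted p = 0.123) and -0.14 ± 0.13 with ETV4WT (adjusted p = 0.659).

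BAX, the effector, had 88.4 and 77.5 CPM in 22Rv1 ETV4AAA and 101 and 97.2 CPM in ETV4WT, against 58.4 and 42.9 CPM in eGFP. All 4 construct libraries lay above both eGFP libraries, which differed 1.36-fold. The log2 change of BAX was 0.71 ± 0.31 with ETV4AAA (adjusted p = 0.107) and 0.97 ± 0.31 with ETV4WT (adjusted p = 0.182). BAX passed with no filter on low counts (adjusted p = 0.000152 for ETV4AAA and 5.55e-06 for ETV4WT) and with 22Rv1 fitted on its own (0.00199 and 0.00457), over ranges of 0.000152 to 0.459 and 5.55e-06 to 0.652. BAK1 had 26.8 and 22.1 CPM in ETV4AAA and 22.4 and 21.1 CPM in ETV4WT, against 21.5 and 18.9 CPM in eGFP, and did not pass in either.

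Of the BH3-only genes in 22Rv1, BID and BMF rose with ETV4AAA. BID had 10.5 and 13.004 CPM in ETV4AAA and 10.5 and 8.25 CPM in ETV4WT, against 7.73 and 7.47 CPM in eGFP. Its log2 change was 0.63 ± 0.17 with ETV4AAA (adjusted p = 0.0125) and 0.30 ± 0.17 with ETV4WT (adjusted p = 0.443). BMF had 70.0 and 59.7 CPM in ETV4AAA and 34.6 and 38.5 CPM in ETV4WT, against 41.2 and 34.3 CPM in eGFP. The ETV4AAA libraries lay above the others, and those of ETV4WT and eGFP overlapped. BMF had a log2 change of 0.78 ± 0.18 with ETV4AAA (adjusted p = 0.00653) and -0.05 ± 0.18 with ETV4WT (adjusted p = 0.953). The rise of BID was lost without ETV4AAA replicate 2 (adjusted p = 0.137), eGFP replicate 1 (0.0665) or eGFP replicate 2 (0.0861), over a range of 0.00548 to 0.137. The rise of BMF was lost without ETV4AAA replicate 1 (adjusted p = 0.0727) or eGFP replicate 2 (0.0797), over a range of 0.000255 to 0.0797. PMAIP1 had 6.83 and 7.19 CPM in ETV4AAA and 7.60 and 5.55 CPM in ETV4WT, against 8.45 and 9.86 CPM in eGFP, with all 4 construct libraries below eGFP. Its log2 change was -0.39 ± 0.17 with ETV4AAA (adjusted p = 0.103) and -0.48 ± 0.17 with ETV4WT (adjusted p = 0.216). BBC3 had 27.8 and 19.5 CPM in ETV4AAA and 31.9 and 35.4 CPM in ETV4WT, against 25.1 and 13.6 CPM in eGFP. BCL2L11 had 27.2 and 25.2 CPM in ETV4AAA and 22.8 and 24.1 CPM in ETV4WT, against 27.9 and 30.2 CPM in eGFP. Neither BBC3 nor BCL2L11 passed with either construct, except BBC3 for ETV4WT with no filter (adjusted p = 0.00939, over a range of 0.00939 to 0.832).

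The count of 4 members for ETV4AAA fell to 2 without eGFP replicate 2. Markers of both lines moved in the same libraries. The 8 markers of 22Rv1 itself summed to 1718 to 1811 CPM in 22Rv1 ETV4AAA and 2465 to 2585 CPM in ETV4WT, against 2562 to 2564 CPM in eGFP, and 5 of 8 were lower and 1 higher with ETV4AAA. The 8 PC3 markers summed to 521 to 530 CPM in 22Rv1 ETV4AAA and 294 to 296 CPM in ETV4WT, against 163 to 168 CPM in eGFP, and 6 of 8 were higher with ETV4AAA. AXL stayed at or below 0.0237 CPM in every 22Rv1 library. In PC3 the 8 markers of 22Rv1 summed to 630 to 838 CPM in the libraries labelled ETV4AAA and 408 to 527 CPM in those labelled ETV4WT, against 612 to 652 CPM in eGFP, and 3 of 8 were higher with ETV4WT at trace levels, with KLK3 at 0. The summed immune cell markers reached at most 9.10 CPM and the stromal and endothelial markers 46.3 CPM in any library. Their part in the results was not tested.

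The constructs were also set against each other. ETV4AAA and ETV4WT differed in BCL2 in both lines, in opposite directions. In PC3, BCL2 was higher with ETV4AAA, at 19.3 and 18.7 CPM against 10.1 and 11.5 CPM with ETV4WT (log2 difference 0.81 ± 0.15, adjusted p = 0.00436), in every alternative run. In 22Rv1 it was lower with ETV4AAA, at 6.15 and 5.03 CPM against 9.34 and 10.0 CPM with ETV4WT (log2 difference -0.79 ± 0.16, adjusted p = 0.00278), also in every alternative run. PMAIP1 was lower with ETV4AAA than with ETV4WT in PC3 (log2 difference -0.67 ± 0.16, adjusted p = 0.0168). That call was lost without ETV4AAA replicate 1 (adjusted p = 0.1), without ETV4WT replicate 2 (0.111) and without both PC3 construct libraries numbered 2 (0.0555), over a range of 0.00024 to 0.111. BBC3 in PC3 was at 0.362-fold of the ETV4WT level with ETV4AAA and did not pass (log2 difference -1.46 ± 0.49, adjusted p = 0.0805). It passed without ETV4AAA replicate 1 (adjusted p = 0.0165) or ETV4WT replicate 2 (0.0304), with upper-quartile factors (0.0371) and with no filter (2.58e-08), over a range of 2.58e-08 to 0.418. In PC3 2 of 10 members passed, 1 in each direction, where 11% of all genes tested passed (3.65% higher and 7.32% lower with ETV4AAA). Libraries did not overlap for 6 of 10 members, where 44.1% of all genes did not.

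Between the constructs in 22Rv1 4 of 10 members passed, 3 higher and 1 lower with ETV4AAA, where 23.5% of all genes passed (13.9% higher and 9.62% lower). Libraries did not overlap for 7 of 10 members, where 61.2% of all genes did not. BCL2L1 was 3.04-fold higher with ETV4AAA than with ETV4WT (log2 difference 1.61 ± 0.18, adjusted p = 3.79e-05). BMF was higher with ETV4AAA, with a log2 difference of 0.83 ± 0.18 (adjusted p = 0.00599), and MCL1 with one of 0.42 ± 0.13 (adjusted p = 0.0325). BMF lost its call without ETV4AAA replicate 1 (adjusted p = 0.0739) or ETV4WT replicate 1 (0.0722), over a range of 0.000111 to 0.0739. MCL1 lost it without any of the 4 libraries, at adjusted p = 0.122 without ETV4AAA replicate 1, 0.0762 without its replicate 2, 0.0975 without ETV4WT replicate 1 and 0.0859 without ETV4WT replicate 2, and with upper-quartile factors (0.0804), over a range of 0.00916 to 0.122. The count was 2 without ETV4AAA replicate 1 or ETV4WT replicate 1.

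The difference between the lines was tested as the construct's log2 change in PC3 minus that in 22Rv1. This test shows whether the log2 changes differed, with 1 line of each kind. ETV4 itself changed by 0.46 ± 0.33 in PC3 and 3.58 ± 0.37 in 22Rv1 with ETV4AAA. With ETV4WT it changed by 0.43 ± 0.33 in PC3 and 3.95 ± 0.37 in 22Rv1. A different rise of ETV4 and a different response to it therefore cannot be told apart. PMAIP1 and BID differed for both constructs, BCL2 and BMF for ETV4AAA, and BAX and MCL1 for ETV4WT. For ETV4AAA 4 of 10 members passed, 2 in each direction, where 16.2% of all genes tested passed (6.73% higher and 9.48% lower). For ETV4WT 4 of 10 passed, 2 in each direction, where 12.5% passed (7.57% higher and 4.92% lower).

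**Figure D4:**
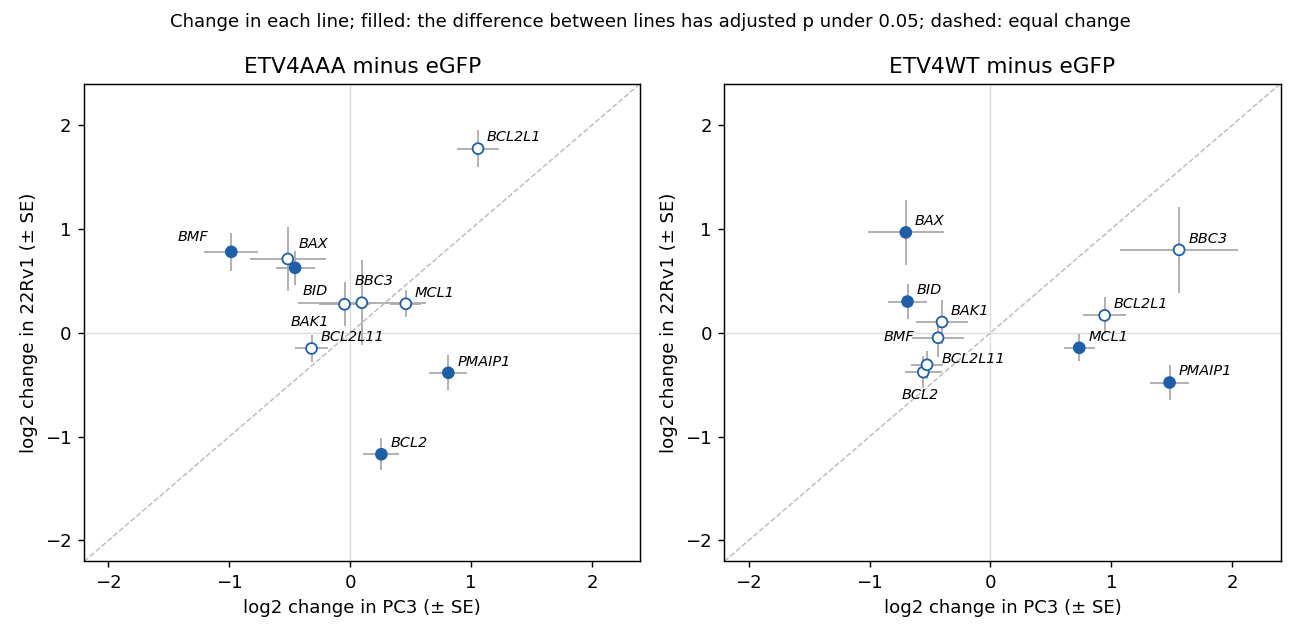
log2 change against eGFP in PC3 (horizontal axis) and 22Rv1 (vertical axis) for each of the 10 genes, with SE bars, for ETV4AAA and ETV4WT; the dashed line marks equal change and filled points have an adjusted p under 0.05 for the difference between lines. PMAIP1 lies to the right and below 0 for both constructs, and BID lies to the left and above 0 for both.

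For ETV4AAA, the change of BCL2 was 0.26 ± 0.15 in PC3 and -1.17 ± 0.16 in 22Rv1, a difference of 1.43 ± 0.22 (adjusted p = 0.000734). The change of PMAIP1 was 0.81 ± 0.16 in PC3 and -0.39 ± 0.17 in 22Rv1, a difference of 1.20 ± 0.23 (adjusted p = 0.00377). BID and BMF had the opposite pattern, with negative values in PC3 and positive ones in 22Rv1. The difference was -1.08 ± 0.23 for BID (adjusted p = 0.00712) and -1.76 ± 0.29 for BMF (adjusted p = 0.00126). These 4 calls held in every alternative run. BCL2L1 rose in both lines with ETV4AAA, and the difference of -0.72 ± 0.25 did not pass (adjusted p = 0.0705). It passed without PC3 ETV4AAA replicate 1 (adjusted p = 0.00997) and with no filter (0.0159). The difference of BAX was -1.23 ± 0.44 (adjusted p = 0.0842), and it passed without PC3 ETV4AAA replicate 1 (0.00361), without both PC3 construct libraries numbered 2 (0.0199), with no filter (1.37e-05) and in DESeq2's Wald test (0.0331). Over the alternatives these adjusted p-values ran from 0.00997 to 0.257 for BCL2L1 and 1.37e-05 to 0.291 for BAX. The count was then 6 without PC3 ETV4AAA replicate 1, and without both PC3 construct libraries numbered 2 it was 5.

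For ETV4WT, PMAIP1 changed by 1.48 ± 0.16 in PC3 and -0.48 ± 0.17 in 22Rv1, a difference of 1.96 ± 0.23 (adjusted p = 0.000207), in every alternative run. MCL1 changed by 0.74 ± 0.13 in PC3 and -0.14 ± 0.13 in 22Rv1, a difference of 0.88 ± 0.18 (adjusted p = 0.00846). NOXA and the guardian that it binds were thus both higher with ETV4WT in PC3 and not in 22Rv1, and both differences passed. BAX, an effector, differed by -1.67 ± 0.44 (adjusted p = 0.0305) and BID by -0.99 ± 0.23 (adjusted p = 0.0166). MCL1 lost its call without PC3 eGFP replicate 2 (adjusted p = 0.0536, over a range of 2.43e-05 to 0.0536). BID lost it without PC3 eGFP replicate 1 (adjusted p = 0.0642) or 2 (0.0739), 22Rv1 eGFP replicate 1 (0.0557) or 2 (0.0785) or 22Rv1 ETV4WT replicate 1 (0.0854), over a range of 0.00685 to 0.0854. BAX kept it only without PC3 ETV4WT replicate 1 and lost it without any other 1 of the 8 libraries, at 0.073 and 0.096 without PC3 eGFP replicate 1 and 2, 0.0906 without PC3 ETV4WT replicate 2, 0.0643 and 0.167 without 22Rv1 eGFP replicate 1 and 2, and 0.126 and 0.1 without 22Rv1 ETV4WT replicate 1 and 2, over a range of 1.41e-08 to 0.167. The count was 1 without PC3 eGFP replicate 2, 2 without PC3 eGFP replicate 1, either 22Rv1 eGFP library or 22Rv1 ETV4WT replicate 1, and 5 without both PC3 construct libraries numbered 2. BCL2L1 differed by 0.78 ± 0.25 and did not pass (adjusted p = 0.0617), but passed without PC3 ETV4WT replicate 2 (adjusted p = 0.0308) and without both PC3 construct libraries numbered 2 (adjusted p = 0.000893), with DESeq2 size factors (0.0342), upper-quartile factors (0.013), no filter (0.00135) and DESeq2's Wald test (0.0216), over a range of 0.000893 to 0.184.

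The contrast of ETV4AAA with ETV4WT differed between the lines for 5 of 10 members, 1 higher and 4 lower, where 21% of all genes tested did (7.94% higher and 13% lower). The 3 guardians were among them: the difference, PC3 minus 22Rv1, was 1.60 ± 0.22 for BCL2 (adjusted p = 0.000239), -1.49 ± 0.25 for BCL2L1 (adjusted p = 0.00107) and -0.70 ± 0.18 for MCL1 (adjusted p = 0.0172). It was -1.38 ± 0.29 for BMF (adjusted p = 0.00516) and -0.76 ± 0.23 for PMAIP1 (adjusted p = 0.0351). MCL1 lost its call without PC3 ETV4AAA replicate 1 (adjusted p = 0.0596) or PC3 ETV4WT replicate 2 (0.0579), over a range of 0.000834 to 0.0596. PMAIP1 lost it without PC3 ETV4AAA replicate 1 (adjusted p = 0.0909), PC3 ETV4WT replicate 2 (0.107), 22Rv1 ETV4AAA replicate 1 (0.0608) or 2 (0.083) or 22Rv1 ETV4WT replicate 2 (0.0855), over a range of 0.00362 to 0.107. BBC3 passed with no filter (adjusted p = 0.00936) and, just, without PC3 ETV4AAA replicate 1 (0.05), over a range of 0.00936 to 0.86. The count was 3 without PC3 ETV4WT replicate 2.

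Transcription factors known to act on these genes moved in both lines. The shares of all genes called, against which this and the other gene lists are read, were 3.69% and 23.4% in PC3 and 31.8% and 1.5% in 22Rv1 for ETV4AAA and ETV4WT. Of 13 such factors, 3 were higher and 0 lower in PC3 with ETV4AAA, and 5 higher and 2 lower with ETV4WT. The ETV4AAA count in PC3 was 1 without ETV4AAA replicate 2, without either eGFP library, and with PC3 fitted on its own. In 22Rv1 3 were higher and 5 lower with ETV4AAA, and 0 passed with ETV4WT, where 4 had an unadjusted p under 0.05 in edgeR and DESeq2 called 0. Beside the all-gene medians given above, their median log2 change was -0.01 and 0.31 in PC3 with ETV4AAA and ETV4WT, and -0.16 and -0.09 in 22Rv1. ATF4, which drives PMAIP1 in amino acid and endoplasmic reticulum stress, had 522 and 439 CPM in the PC3 libraries labelled ETV4AAA and 713 and 658 CPM in those labelled ETV4WT, against 340 and 331 CPM in eGFP. DDIT3 (CHOP), a partner of ATF4 that acts on BH3-only genes, had 20.5 and 16.5 CPM with ETV4AAA and 54.2 and 48.2 CPM with ETV4WT, against 15.4 and 16.7 CPM in eGFP. Both rose with ETV4WT in PC3, ATF4 by a log2 change of 1.03 ± 0.12 (adjusted p = 0.000119) and DDIT3 by 1.67 ± 0.18 (adjusted p = 4.15e-05). In 22Rv1 ATF4 had 504 and 538 CPM in ETV4AAA and 605 and 524 CPM in ETV4WT, against 762 and 807 CPM in eGFP, and fell with ETV4AAA (log2 change -0.59 ± 0.12, adjusted p = 0.00323). STAT3, which acts on BCL2L1 and MCL1, had 2.30 and 2.51 CPM in PC3 ETV4AAA and 10.3 and 11.4 CPM in PC3 ETV4WT, against 1.27 and 1.38 CPM in PC3 eGFP. PC3 is known as a line with little or no STAT3. STAT3 counts were higher in the PC3 libraries labelled ETV4WT by a log2 change of 3.04 ± 0.15 (adjusted p = 4.4e-07), against what is known of the line. The source of these reads was not tested, nor was the part of STAT3 in the other results. In 22Rv1 STAT3 had 123 and 116 CPM in ETV4AAA and 53.8 and 58.9 CPM in ETV4WT, against 47.3 and 49.2 CPM in eGFP. The ETV4WT change of ATF4 differed between the lines by 1.51 ± 0.18 (adjusted p = 0.00019), that of DDIT3 by 2.12 ± 0.24 (adjusted p = 0.000174) and that of ATF3 by 3.92 ± 0.20 (adjusted p = 1.58e-06).

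**Figure D5:**
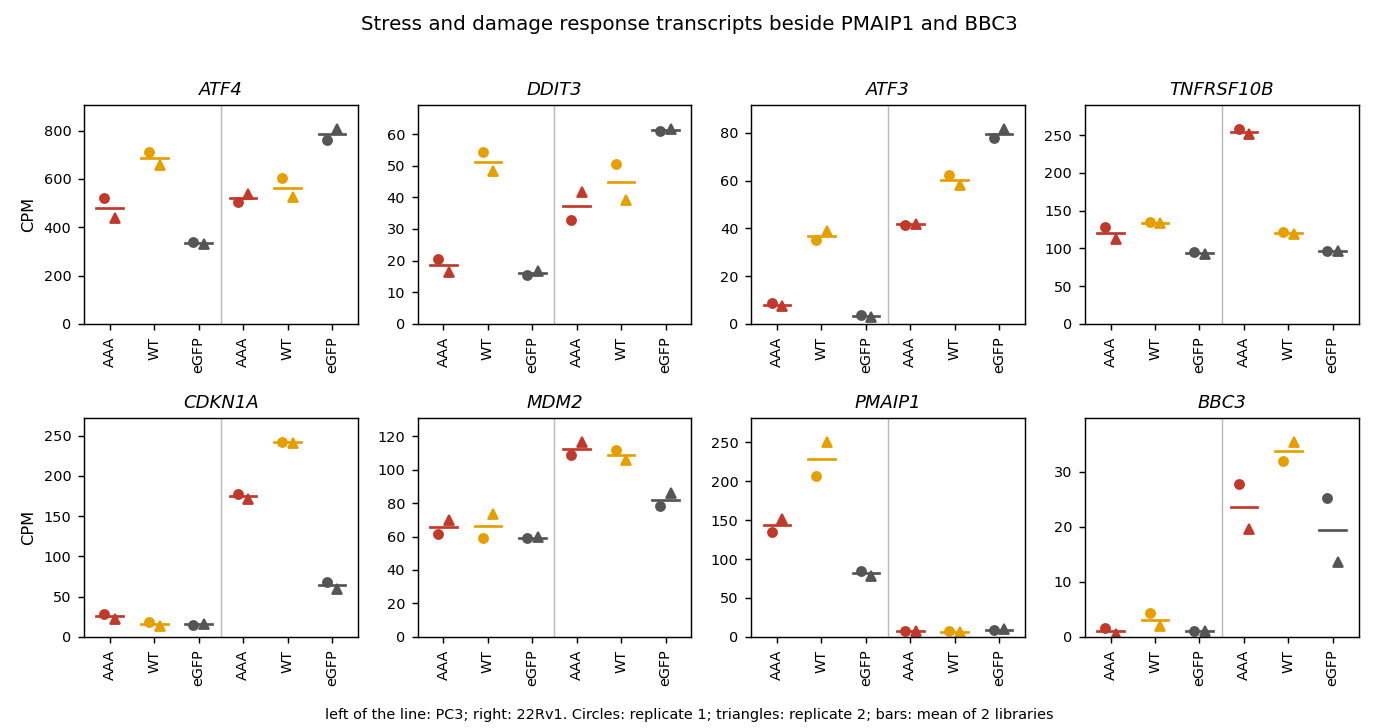
CPM of stress and damage response genes in every library, linear axes starting at 0, with PC3 left and 22Rv1 right of the line in each panel, AAA, WT and eGFP for ETV4AAA, ETV4WT and eGFP, circles and triangles for replicates 1 and 2 and bars for means; PMAIP1 and BBC3 are repeated for comparison. ATF4, DDIT3 and ATF3 are highest in ETV4WT within PC3 and highest in eGFP within 22Rv1, and CDKN1A is high in both construct groups of 22Rv1.

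Other genes of the DNA damage response served as a comparison for BBC3, PMAIP1 and BAX. Of 12, 1 was higher in PC3 with ETV4AAA and 2 were higher and 1 lower with ETV4WT, while in 22Rv1 9 were higher with ETV4AAA and 4 with ETV4WT, and 0 lower. The 3 of 12 called in PC3 with ETV4WT are close to the share of all genes there. Their median log2 change was 0.98 and 0.54 in 22Rv1 with ETV4AAA and ETV4WT. CDKN1A, which encodes the cell cycle inhibitor p21, had 178 and 172 CPM in 22Rv1 ETV4AAA and 242 and 241 CPM in ETV4WT, against 68.6 and 59.5 CPM in eGFP. In PC3 it had 28.0 and 22.7 CPM with ETV4AAA and 18.0 and 13.3 CPM with ETV4WT, against 14.6 and 16.1 CPM in eGFP. CDKN1A rose in 22Rv1 with both constructs and did not pass in PC3 with ETV4WT (log2 change 0.03 ± 0.16, adjusted p = 0.956). In 22Rv1 the BAX libraries also lay above eGFP with both constructs, but BAX did not pass with either. The PMAIP1 libraries lay below eGFP there with both constructs. Those of BBC3 lay above eGFP with ETV4WT and overlapped it with ETV4AAA, and BBC3 did not pass with either. MDM2, a ubiquitin ligase, had log2 changes of 0.16 ± 0.13 in PC3 with ETV4WT (adjusted p = 0.407) and 0.46 ± 0.13 in 22Rv1 with ETV4AAA (adjusted p = 0.0197). In PC3 the ETV4WT count of these genes was 5 without ETV4WT replicate 1, and in 22Rv1 it was 2 without eGFP replicate 1 and 1 without eGFP replicate 2 or ETV4WT replicate 1. The ETV4AAA count in PC3 was 0 without ETV4AAA replicate 2 or either eGFP library.

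Of the rest of the BCL2 family, 13 genes, BCL2A1, HRK and BOK are described, BOK being chosen after its values were seen. BCL2A1, an anti-apoptotic member that NOXA also binds, had 7.42 and 8.75 CPM in the PC3 libraries labelled ETV4AAA and 4.03 and 5.31 CPM in those labelled ETV4WT, against 0.121 and 0.0215 CPM in eGFP. Its level was above eGFP in both libraries of both constructs, also in those numbered 2, whose ETV4 lay below eGFP. The part of ETV4 in this was not tested. BCL2A1 rose by a log2 change of 6.75 ± 0.41 with ETV4AAA (adjusted p = 1.07e-05) and 5.95 ± 0.42 with ETV4WT (adjusted p = 3.05e-06). In 22Rv1 it had 0.444 and 0.807 CPM in ETV4AAA, against 0.0410 and 0.0618 CPM in eGFP, a rise at trace level (adjusted p = 0.000532). HRK (Harakiri), a BH3-only gene, had 0.986 and 1.22 CPM with ETV4AAA and 4.35 and 5.39 CPM with ETV4WT in PC3, against 1.01 and 1.20 CPM in eGFP. In 22Rv1 HRK had 9.36 and 10.1 CPM in ETV4AAA and 1.22 and 1.41 CPM in ETV4WT, against 1.35 and 1.05 CPM in eGFP. HRK therefore rose with ETV4WT in PC3 (log2 change 2.14 ± 0.21, adjusted p = 2.28e-05) and with ETV4AAA in 22Rv1 (3.01 ± 0.21, adjusted p = 4.5e-07). BOK, a relative of BAX and BAK1, had 59.3 and 47.9 CPM in 22Rv1 ETV4AAA and 21.1 and 20.6 CPM in ETV4WT, against 16.7 and 12.002 CPM in eGFP, and rose 3.73-fold with ETV4AAA (log2 change 1.90 ± 0.35, adjusted p = 0.00132). In PC3 BOK had 39.3 and 18.1 CPM with ETV4AAA and 25.0 and 13.4 CPM with ETV4WT, against 38.9 and 44.1 CPM in eGFP, and fell with ETV4WT (log2 change -1.11 ± 0.34, adjusted p = 0.0348), with replicate 1 of each construct above replicate 2 as for BAX. Of the 13, 1 passed in PC3 with ETV4AAA, higher, and 3 were higher and 2 lower with ETV4WT, with medians of 0 and -0.10. In 22Rv1 6 were higher and 1 lower with ETV4AAA and 2 higher with ETV4WT, the pair BNIP3 and BNIP3L, with medians of 0.52 and 0.20. In PC3 the ETV4AAA count was 2 without ETV4AAA replicate 1, and the ETV4WT count was 2 without ETV4WT replicate 2 or either eGFP library. In 22Rv1 the ETV4WT count was 0 without either eGFP library or ETV4WT replicate 1 and 1 without ETV4WT replicate 2.

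The list of mitochondrial apoptosis machinery holds 17 genes, for caspases, cytochrome c and proteins of the mitochondrial membranes among others. Of these, 0 were higher and 5 lower in PC3 with ETV4WT (median -0.19), where 23.4% of all genes were called, 10.7% lower. In 22Rv1 with ETV4AAA 0 were higher and 8 lower (median -0.35), where 31.8% of all genes were called, 14.4% lower. In edgeR 0 were called in PC3 with ETV4AAA and in 22Rv1 with ETV4WT, where 0 and 1 had an unadjusted p under 0.05 and DESeq2 called 0 in each. APAF1, the scaffold of the apoptosome, had 35.3 and 44.4 CPM in the PC3 libraries labelled ETV4AAA and 21.0 and 25.7 CPM in those labelled ETV4WT, against 41.5 and 42.6 CPM in eGFP. APAF1 fell with ETV4WT (log2 change -0.85 ± 0.16, adjusted p = 0.00216). The 22Rv1 ETV4AAA count of 8 was 4 without ETV4AAA replicate 1 or eGFP replicate 2, and 5 with no filter on low counts.

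Of 13 death receptor genes 6 were higher and 0 lower in 22Rv1 with ETV4AAA (median 0.48), where 17.4% of all genes were higher. In PC3 with ETV4WT 3 were higher and 0 lower (median 0.01). This share is close to the 23.4% of all genes called there, 12.7% of them higher than in eGFP. That PC3 count was 0 without eGFP replicate 2. In edgeR 0 passed in PC3 with ETV4AAA, where 3 had an unadjusted p under 0.05 and DESeq2 called 2, and 0 in 22Rv1 with ETV4WT, where 5 did and DESeq2 called 1. TNFRSF10B, the TRAIL receptor DR5 and a target of CHOP, which is also among the damage response genes, had 258 and 251 CPM in 22Rv1 ETV4AAA and 121 and 119 CPM in ETV4WT, against 96.3 and 96.4 CPM in eGFP. It rose 2.64-fold with ETV4AAA (log2 change 1.40 ± 0.11, adjusted p = 1.24e-06). In PC3 it had 128 and 112 CPM with ETV4AAA and 134 and 134 CPM with ETV4WT, against 95.4 and 92.4 CPM in eGFP, a rise with ETV4WT (log2 change 0.52 ± 0.11, adjusted p = 0.00434). Among 7 tested inhibitors of apoptosis, 1 was higher in PC3 with ETV4AAA, 2 were higher and 1 lower with ETV4WT, 1 was higher and 1 lower in 22Rv1 with ETV4AAA, close to the share of all genes, and 0 passed with ETV4WT in edgeR (1 at an unadjusted p under 0.05, 0 in DESeq2). BIRC5 (survivin), also a mitotic gene, fell in 22Rv1 with ETV4AAA (log2 change -1.03 ± 0.12, adjusted p = 3.31e-05) and in PC3 with ETV4WT (-0.43 ± 0.12, adjusted p = 0.0187). These counts in PC3 were 2 for ETV4AAA without its replicate 1 and 0 without its replicate 2 or either eGFP library, and 1 for ETV4WT without its replicate 2 or either eGFP library. In 22Rv1 the ETV4AAA count was 1 without its replicate 2 or eGFP replicate 1. Of 10 genes for the turnover of MCL1 and NOXA proteins, 0 passed in edgeR in PC3 with ETV4AAA (2 at an unadjusted p under 0.05, 1 in DESeq2) or in 22Rv1 with ETV4WT (3 and 0), 2 were higher and 2 lower in PC3 with ETV4WT, and 2 were lower in 22Rv1 with ETV4AAA. USP9X, the deubiquitinase that stabilises MCL1, was among those that rose in PC3 with ETV4WT (log2 change 0.63 ± 0.15). The PC3 ETV4WT count was 1 without ETV4WT replicate 2 or either eGFP library, and the 22Rv1 ETV4AAA count was 1 without either ETV4AAA library or eGFP replicate 2.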

How the data were processed

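The table deposited by the authors holds raw counts per Ensembl gene for 12 libraries, in whole numbers. FastQC 0.11.9 and the aligner STAR 2.5.3a with GRCh38 were used, per the submitters' processing notes. The counting program, its strand setting and its annotation were not given in the sources used here. Gene symbols and positions come from GENCODE 29, where 99.55% of the IDs were found. The counts were analysed with edgeR 4.0.16 in R 4.3.3: filterByExpr by group, TMM factors and a quasi-likelihood fit to all 12 libraries with 1 mean per group and no replicate block, which left 6 residual degrees of freedom (biological coefficient of variation 0.149). A call needs an adjusted p (Benjamini-Hochberg, all 23238 tested genes) under 0.05, and the SE is the size of the log2 change over the square root of F. The method was tested on simulated data. Replicate pairs all differed beyond sampling noise, with a chi-square per degree of freedom of 3.24 to 57.7. No molecular identifiers are named in the labels, so PCR copies of a fragment may be counted more than once.

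All 10 members are named. From each other list, up to 3 called genes with the lowest adjusted p and the uncalled gene with the highest CPM per comparison may be named, and ATF4, DDIT3, ATF3, CDKN1A and MDM2 always. Some listed genes are not reported here, and the list counts leave them out. The members and lists were chosen with earlier results of these data known, so counts over them are descriptions. Other settings tried were scaling by DESeq2 size factors or by upper-quartile factors, testing without the filter, the DESeq2 1.42.0 Wald test, each line fitted alone, a replicate block and leaving out each library. Leaving out both PC3 construct libraries numbered 2 was added after seeing the data.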

Additional observations from a re-analysis of the deposited data

Results flagged for a closer look

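The change with a construct differed between PC3 and 22Rv1, by the interaction test, for 13 gene and contrast pairs, each given as the log2 value in PC3 minus that in 22Rv1. For ETV4AAA against eGFP the differences were 1.4279 for BCL2, 1.1974 for PMAIP1, -1.0812 for BID and -1.7633 for BMF. For ETV4WT against eGFP they were 0.8795 for MCL1, 1.961 for PMAIP1, -1.6668 for BAX and -0.9867 for BID. For ETV4AAA against ETV4WT they were 1.6039 for BCL2, -1.4927 for BCL2L1, -0.6982 for MCL1, -0.7635 for PMAIP1 and -1.3782 for BMF.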

How the results depend on the processing

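Of 100 member results, 39 passed the threshold, 20 of these in every alternative, and none of the 39 changed direction. Of the other 61, 16 changed sign somewhere. With upper-quartile factors the sign changed for BCL2L1 in PC3 ETV4AAA against ETV4WT (-0.0059), for BCL2 (-0.0036) and BAK1 (-0.0577) between the eGFP lines, for BCL2 in the ETV4WT difference between lines (0.0131) and for BCL2L11 in the ETV4AAA against ETV4WT difference (-0.0323; -0.0574 with no filter and -0.0299 without both PC3 construct libraries numbered 2). BAK1 in PC3 ETV4AAA against eGFP was 0.0184 with DESeq2 size factors, 0.0185 with the Wald test and 0.2643 without both libraries, and BBC3 in the ETV4AAA difference was 0.3501 without both. Leaving out 1 library at a time, the log2 value of BBC3 ran from -0.9419 to 0.6423 in PC3 ETV4AAA against eGFP, from -0.1116 to 0.7795 in 22Rv1 ETV4AAA against eGFP and from -1.2428 to 0.3745 in the ETV4AAA difference. In PC3 ETV4AAA against ETV4WT, BCL2L1 ran from -0.1526 to 0.3384, BAX from -0.4275 to 0.6909 and BAK1 from -0.0472 to 0.6257. In the ETV4AAA against ETV4WT difference, BAX ran from -0.1762 to 0.9436, BAK1 from -0.2227 to 0.4715, BCL2L11 from -0.035 to 0.1311 and BID from -0.3063 to 0.0452. BAK1 ran from -0.4455 to 0.2436 in PC3 ETV4AAA against eGFP, BMF from -0.1809 to 0.0884 in 22Rv1 ETV4WT against eGFP and PMAIP1 from -0.1338 to 0.3225 in 22Rv1 ETV4AAA against ETV4WT. The cause was not tested.

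Member counts, main against the range without 1 library, were 3 against 0 to 5 for ETV4AAA and 7 against 3 to 6 for ETV4WT in PC3, both against eGFP, 4 against 2 to 3 in both ETV4AAA comparisons of 22Rv1, 4 against 1 to 4 for the ETV4WT difference, 4 against 4 to 6 for the ETV4AAA difference and 5 against 3 to 5 for the ETV4AAA against ETV4WT difference. With each line fitted alone they were 1 for ETV4AAA and 4 for ETV4WT in PC3 and 1 for ETV4WT in 22Rv1, where testing without the filter gave 2. Without both PC3 construct libraries numbered 2, ETV4AAA against ETV4WT in PC3 gave 1. Over all genes, testing without the filter gave 2152 calls against 858 for PC3 ETV4AAA, 904 against 348 for 22Rv1 ETV4WT and 4436 against 2903 for the ETV4WT difference. Fitted alone, PC3 gave 466 calls for ETV4AAA and 1657 against 2550 for ETV4AAA against ETV4WT, which was 1341 without both libraries. Counts for the other gene lists moved by over 1.5 times in 164 of 798 values. Upper-quartile factors shifted the all-gene median by -0.11 for PC3 ETV4AAA against ETV4WT (17% of calls higher, against 33.3%), 0.19 for the ETV4WT difference (75.6% against 60.6%) and 0.10 for the ETV4AAA difference.

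Same-numbered libraries did not deviate together throughout (correlations of -0.098, 0.494 and -0.103 in PC3 and 0.212, -0.141 and -0.149 in 22Rv1). Such correlations cannot decide whether libraries of the same number shared a culture. The replicates of PC3 eGFP, for example, differed little from each other (chi-square per degree of freedom 3.24). The value of 0.494 is that of PC3 ETV4AAA with PC3 ETV4WT, whose same-numbered libraries did deviate together. With the replicate block, BBC3 in PC3 ETV4AAA against eGFP was -0.042. Member counts under the block were 8 for ETV4WT, 3 for ETV4AAA and 3 for ETV4AAA against ETV4WT in PC3, 5 for ETV4AAA in 22Rv1, 5 for the ETV4WT difference and 6 for the ETV4AAA difference. The calls gained, by adjusted p, were BAX in PC3 ETV4WT (0.0243), 22Rv1 ETV4AAA (0.0295) and the ETV4AAA difference (0.0137), BBC3 in PC3 ETV4AAA against ETV4WT (0.0236), and BCL2L1 in the ETV4WT (0.0347) and ETV4AAA (0.0317) differences.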
